A study of Mus musculus with 62 samples.

Results

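The 10 collagen genes described here were genes of the muscle stroma, followed through histone mark peak lists of mouse skeletal muscle: Col1a1, Col1a2, Col3a1, Col5a1 and Col5a2 of the fibrillar collagens, Col4a1 and Col4a2 of the basement membrane, Col6a1 and Col6a2 of the microfibrillar type VI, and Col15a1, a multiplexin. A peak was counted for a collagen gene when the list named that gene as its nearest, which is an assignment by the closest transcription start site (TSS) and not by any measured contact. By this rule 1158 of 596282 peaks belonged to the 10 genes in the 16 lists, 8 of acetylated histone H3 lysine 27 (H3K27ac) and 8 of dimethylated histone H3 lysine 4 (H3K4me2). A further 7 collagen gene regions were found in the 4 lists of differential H3K27ac, which held 382, 2280, 844 and 1828 regions.

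Collagens are secreted triple-helical proteins. Types I, III and V assemble into the fibrils of the endomysium, perimysium and epimysium, type V regulating fibril diameter. Type IV forms the sheet-like network of the basal lamina around each myofiber and capillary, type VI forms beaded filaments that link the basal lamina to the interstitial matrix, and type XV bridges basement membrane and fibrils. In muscle these genes are transcribed chiefly by fibroblasts and other stromal cells, with type IV and type XV also made by endothelial and mural cells. H3K27ac marks active promoters and enhancers, and H3K4me2 marks promoters and enhancers whether or not they are active.

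All mice were male and are labelled C57BL/6, and every group had 2 replicate libraries per mark. The study's methods name the purchased wild-type mice as C57BL/6J of 7 to 8 weeks, caged with or without wheels from 8 weeks of age for 4 weeks, and give no age or strain for the transgenic line. Extensor digitorum longus (EDL), quadriceps (Quad), soleus (Sol) and diaphragm (Dia) came from sedentary wild-type mice, with EDL, Sol and Dia samples each pooled from 3 animals and Quad samples taken from single animals. The other groups were all quadriceps of single animals: sedentary (Sed) and voluntary wheel-running (Ex) wild-type mice, and mice carrying the PGC1a transgene, written PGC1a Tg(+) and called mTg here, with their sedentary wild-type littermates (Wt). The transgene is driven by the muscle creatine kinase promoter, which is active in myofibers. Chromatin came from whole tissue, so fewer cells of a type and a lower level per cell cannot be told apart. The 32 histone libraries held 6.41 to 24.2 M tags, the 4 Wt and 4 mTg libraries being the 8 shallowest. Of 10 myofiber genes checked as markers of the tissue, 8 to 10 had an H3K27ac peak in each group, and of 12 fibroblast markers 10 to 12 did. The lists do not say which cells carried a peak.

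Sequences are given first for 4 promoters with an H3K27ac peak in all 8 groups and for the open chromatin inside the differential regions, because the results below turn on these places. The promoter lines hold the 120 bases before the start site in the RefSeq table of GRCm38.p6 (mm10), 5′ to 3′ on the gene's own strand, with capitals for 4 motifs searched on both strands. These were the CCAAT box, the TATA box searched as TATAAA, the GC box searched as GGGCGG and the AP-1 motif searched as TGANTCA. The 4 printed promoters each show a different one of these motifs. Col4a1, Col4a2 and Col15a1 also had an H3K27ac peak over the TSS in all 8 groups and are not printed. The Col15a1 window held none of the 4 motifs.
Col1a2, chr6:4505498-4505617, plus strand: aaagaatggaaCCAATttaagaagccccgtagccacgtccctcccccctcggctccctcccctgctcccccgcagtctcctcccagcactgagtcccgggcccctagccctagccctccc
Col3a1, chr1:45311418-45311537, plus strand: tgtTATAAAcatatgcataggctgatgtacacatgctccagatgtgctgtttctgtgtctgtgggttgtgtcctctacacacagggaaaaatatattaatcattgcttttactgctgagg
Col5a1, chr2:27886305-27886424, plus strand: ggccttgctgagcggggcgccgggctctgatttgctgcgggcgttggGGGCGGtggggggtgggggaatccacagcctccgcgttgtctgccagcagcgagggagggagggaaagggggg
Col6a1, chr10:76726045-76726164, minus strand: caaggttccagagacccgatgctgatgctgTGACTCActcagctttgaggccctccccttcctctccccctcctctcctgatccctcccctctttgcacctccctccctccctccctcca
A window was found there for 8 of the 10 genes, Col1a1 and Col5a2 not being matched. In the 250 bases before the start, CCAAT was found for Col1a2, Col4a1 and Col4a2, TATAAA for Col3a1, GGGCGG for Col1a2, Col4a2, Col5a1 and Col6a2, and TGANTCA for Col6a1. Over all 32851 windows of the table these shares were 33.8% for CCAAT, 12.4% for TATAAA, 32.7% for GGGCGG and 6.75% for TGANTCA. The windows differed widely in composition: that of Col3a1 had 35.2% GC and no CpG, whereas that of Col5a1 had 76.4% GC and 28 CpGs, against medians of 52.4% and 6 over all windows. The TATAAA of Col3a1 lay 117 to 112 bases before the start. A match to these letters is a description, and neither a bound site nor a working promoter element was tested.

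Inside 5 of the 7 differential regions lay 6 intervals of 195 bp from the Quad ATAC-seq list, which maps open chromatin in sedentary wild-type quadriceps. They are printed on the plus strand of mm10 with the same motifs in capitals.
Col5a1, chr2:27827770-27827964: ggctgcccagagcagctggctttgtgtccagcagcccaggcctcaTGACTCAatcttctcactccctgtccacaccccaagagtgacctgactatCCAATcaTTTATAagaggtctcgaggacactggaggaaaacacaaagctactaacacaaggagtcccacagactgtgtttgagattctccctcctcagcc
Col1a2, chr6:4350049-4350243: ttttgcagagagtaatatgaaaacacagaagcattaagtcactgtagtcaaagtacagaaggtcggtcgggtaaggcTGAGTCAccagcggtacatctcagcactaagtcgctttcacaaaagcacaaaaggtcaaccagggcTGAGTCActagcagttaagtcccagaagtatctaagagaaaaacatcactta
Col4a2, chr8:11171661-11171855: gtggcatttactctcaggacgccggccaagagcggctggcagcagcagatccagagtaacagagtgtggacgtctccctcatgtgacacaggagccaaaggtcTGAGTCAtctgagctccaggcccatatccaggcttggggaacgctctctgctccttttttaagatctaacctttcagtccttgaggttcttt
Col4a2, chr8:11173392-11173586: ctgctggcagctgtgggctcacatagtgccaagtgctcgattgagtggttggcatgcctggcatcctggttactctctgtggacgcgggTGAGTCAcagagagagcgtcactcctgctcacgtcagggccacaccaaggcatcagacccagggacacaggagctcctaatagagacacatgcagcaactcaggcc
Col4a2, chr8:11183675-11183869: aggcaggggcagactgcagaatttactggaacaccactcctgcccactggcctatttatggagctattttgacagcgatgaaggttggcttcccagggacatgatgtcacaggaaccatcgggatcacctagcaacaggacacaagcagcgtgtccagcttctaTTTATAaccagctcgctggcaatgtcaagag
Col3a1, chr1:45290141-45290335: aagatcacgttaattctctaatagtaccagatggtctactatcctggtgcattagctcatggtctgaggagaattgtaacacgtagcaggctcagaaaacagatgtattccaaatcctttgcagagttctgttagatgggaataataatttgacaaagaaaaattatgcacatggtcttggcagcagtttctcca
TGANTCA was present in 4 of these 6 intervals. Over the 57 ATAC intervals that lay in any Quad H3K27ac peak of the 10 genes it was present in 17, or 29.8%, against 10.2% of all 44911 intervals of the list. CCAAT was present in 28.1% of the 57 against 24.8% of all, TATAAA in 8.77% against 6.45%, and GGGCGG in 14.0% against 21.6%. No comparison was made with distal intervals alone.

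Every one of the 10 genes had at least 1 peak of each mark in every group. The H3K27ac lists held 70 collagen gene peaks in EDL, 104 in Quad, 73 in Sol, 69 in Dia, 74 in Sed, 99 in Ex, 129 in Wt and 71 in mTg, which is 0.196% to 0.286% of each list. The H3K4me2 lists held 64, 82, 62, 42, 52, 58, 69 and 40 in the same order, or 0.127% to 0.188%. Over all named genes the median was 1 or 2 peaks per gene in each list, so the collagen genes carried several peaks each: 6.9 to 12.9 per gene for H3K27ac and 4 to 8.2 for H3K4me2. Long genes and genes in gene-poor surroundings gather more peaks by a nearest-TSS rule, and gene length was not adjusted for. Each list was called over both replicates together, so these counts carry no replicate error.

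**Figure D1:**
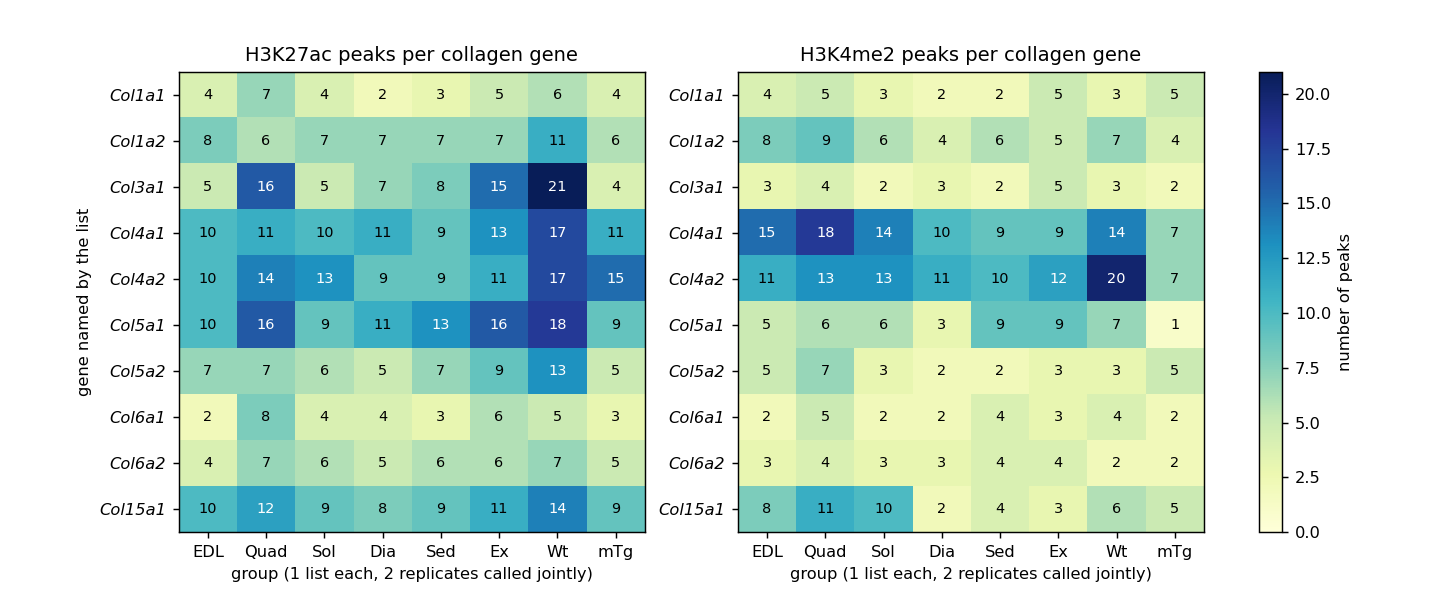
Number of peaks named for each collagen gene (rows) in each group (columns), H3K27ac at left and H3K4me2 at right, darker cells holding more peaks. Col3a1 ranged from 4 H3K27ac peaks in mTg to 21 in Wt, and Col4a1 and Col4a2 held the most H3K4me2 peaks in most groups.

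The count differed most between groups for Col3a1, the type III chain. It had 21 H3K27ac peaks in Wt, 16 in Quad and 15 in Ex, but 8 in Sed, 7 in Dia, 5 in EDL and Sol and 4 in mTg. Col5a1 followed a similar order at the extremes, with 18 in Wt, 16 in Quad and Ex and 9 in Sol and mTg. Col6a2 ranged from 4 to 7 and Col15a1 from 8 to 14 peaks. By marked length the order of Col3a1 differed, with 28.9 kb in Quad, 25.6 kb in Ex and 25.3 kb in Wt. It had 16.9 kb in Dia, 16.1 kb in EDL, 13.8 kb in Sol, 12.5 kb in Sed and 6.66 kb in mTg. When the 8 H3K27ac lists were merged, the collagen genes had 122 regions, of which 42 (34.4%) were called in all 4 muscles, 34 (27.9%) in all 8 groups and 37 (30.3%) in a single group. For all genes the merged set held 63451 regions, with 29.9%, 21.8% and 29.4% in these classes. The genes differed: 6 of 7 merged regions of Col4a1 were called in all 4 muscles, but 2 of 27 of Col3a1. Regions called in a single group were found mainly in Wt with 11, Quad with 9 and Ex with 7, against 1 each in Sol and mTg. The Wt and Quad lists were also the longest, at 49010 and 40949 peaks, against 34572 in Ex, 36169 in mTg and 34173 in Sol. The same split by group over all genes is not given, so these counts are not set apart from list length.

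Most collagen gene peaks were distal. Between 1.35% and 5.48% of the H3K27ac peaks were in the promoter class of the list annotation, against 10.2% to 14.0% of all peaks, and 35.2% to 45.9% were intergenic, against 28.6% to 31.9%. The class goes by the centre of a peak, so a wide peak over a TSS can fall outside it. In EDL 1.43% of the 70 peaks were in the class, although 9 genes had a peak of their own name over the TSS. The share of all peaks that covered a TSS was not compared. The H3K27ac peaks had a median width above that of their list, by the most in Sol with a median of 2489 bp against 1783 bp, except in Wt with 1238 bp against 1250 bp. The H3K4me2 peaks were narrower than the list median in 6 of 8 groups, for instance 832 bp against 1129 bp in Wt, and wider in Ex and mTg. Levels are given as the log2 tag level of the list less log2 of the peak width in kb, called the level per kb. On this scale the collagen gene peaks were below the middle of their lists, with a median percentile of 33.4 to 47.4 for H3K27ac and 17.0 to 38.4 for H3K4me2. Only 2 to 13 H3K27ac peaks per list, and no H3K4me2 peak, were above the 75th percentile. Without width scaling the median percentile was 42.3 to 54.0 for H3K27ac, near the middle of the lists, and 28.9 to 44.8 for H3K4me2. The low rank of the H3K27ac peaks thus depended on the scale.

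Both marks were often found together at these genes. Of the collagen gene H3K4me2 peaks, 75% to 87.9% overlapped an H3K27ac peak of the same group, against 59.7% to 64.7% of all H3K4me2 peaks. In the other direction the share was lower: 40.6% to 64.3% of the collagen gene H3K27ac peaks overlapped an H3K4me2 peak, against 44.9% to 71.5% of all, and the collagen share was below that of all peaks in every group. Thus 25 to 76 H3K27ac peaks per group lay at collagen genes with no H3K4me2 peak called there.

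The place of the strongest H3K27ac peak recurred between groups for some genes and not for others. The strongest Col3a1 peak by level per kb was centred 0.20 to 2.16 kb downstream of the start site in all 8 groups. For Col1a2, the second chain of type I, it was instead an intergenic peak centred 16.5 to 16.9 kb upstream in 7 of 8 groups, the exception being Dia, where the TSS peak was stronger. For Col6a2 it was centred 19.9 to 20.6 kb upstream, inside chr10:76641445-76645798, in all 8 groups, and for Col6a1 3.19 to 6.78 kb upstream in all 8. For Col1a1 and Col5a1 the strongest peak was in the same place in 4 of 8 groups each. Col5a2 had its strongest peak at or just downstream of the TSS in 6 groups. In Sed and mTg, where it had no peak over the TSS, the strongest lay 96.5 kb and 123.0 kb upstream. The median percentile of the strongest peak was lowest for Col1a1, at 57.4, and highest for Col4a2, at 89.5.

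An H3K27ac peak covered the TSS in all 8 groups for Col1a2, Col3a1, Col4a1, Col4a2, Col5a1, Col6a1 and Col15a1. It was missing for Col1a1 in mTg, for Col6a2 in Wt, and for Col5a2 in Sol, Sed and mTg. A missing call at a threshold is not a measured absence: in Sol the strongest Col5a2 peak, chr1:45501322-45503256, ended just short of the TSS at 45503282. H3K4me2 covered the TSS in all 8 groups for 7 genes, in 5 for Col1a1 and in 6 each for Col3a1 and Col6a2. To set the TSS peaks side by side, each library's level per kb was ranked within its own list. The peak shared by Col4a1 and Col4a2 ranked from the 63.5th percentile in mTg to the 83.2nd in Wt, and that of Col6a2 from the 36.3rd in mTg to the 60.3rd in Sol.

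**Figure D2:**
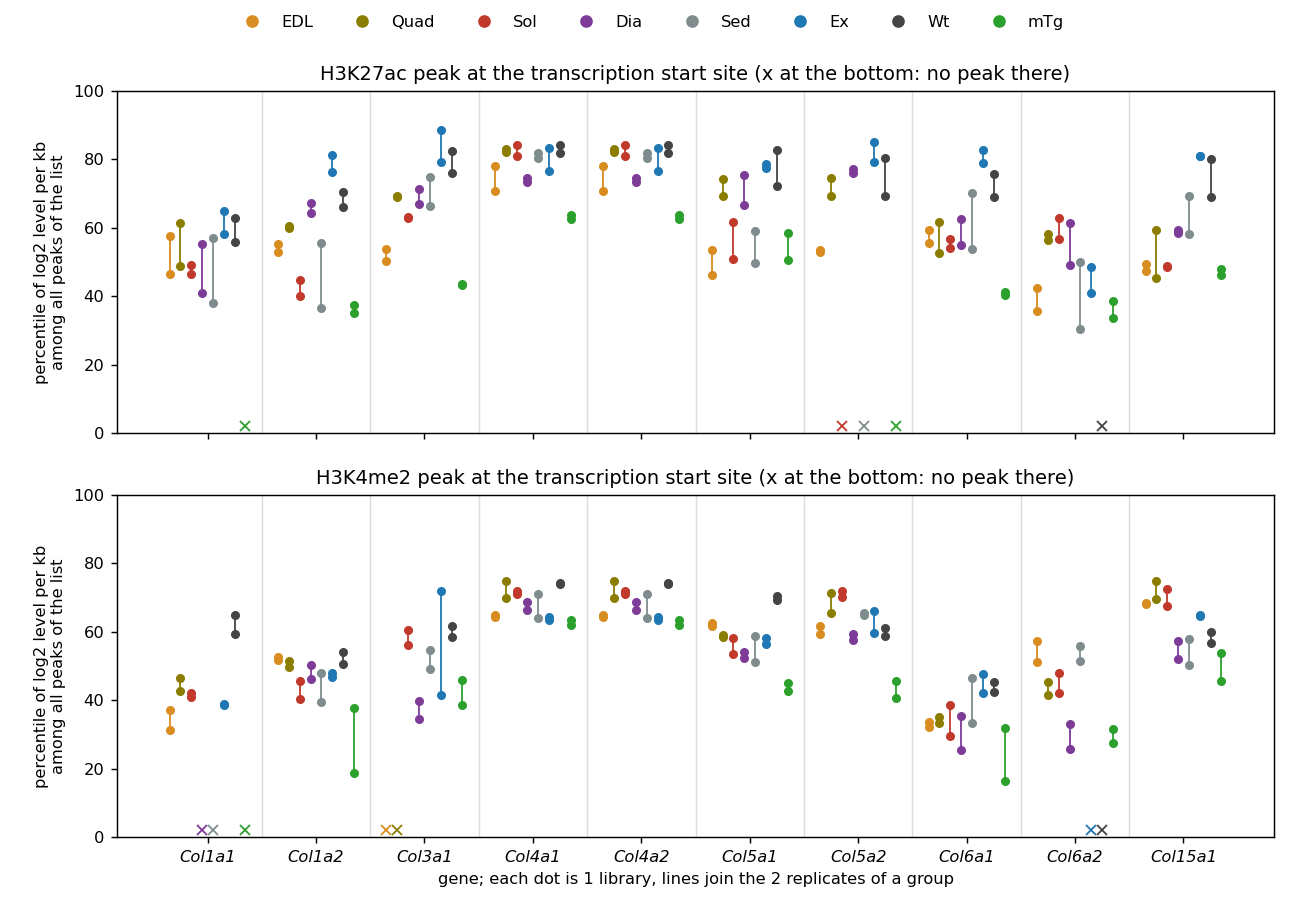
Percentile of the level per kb at the TSS peak of each gene within its own list, H3K27ac above and H3K4me2 below, each dot 1 library and each line joining the 2 replicates of a group, with a cross where no peak covered the TSS. In H3K27ac the Ex libraries lay above the Sed libraries for 6 genes, and the mTg libraries lay below the Wt libraries for all 7 genes with a peak in both, Col4a1 and Col4a2 sharing 1 interval.

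Col4a1 and Col4a2 are transcribed away from each other from neighbouring start sites on chromosome 8, at 11312826 on the minus strand and 11312805 on the plus strand. The nearest-TSS rule crossed their names. All 92 H3K27ac peaks named Col4a1 lay in the body of Col4a2, and 81 of the 98 named Col4a2 lay in the body of Col4a1. The H3K4me2 lists behaved alike, with 96 of 96 and 73 of 97. The 2 names are therefore best read as the plus and the minus side of 1 locus, and no value here separates the 2 genes. Such crossing was otherwise found for 4 of 81 H3K27ac peaks named Col3a1, which lay in Col5a2, its neighbour on chromosome 1.

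**Figure D3:**
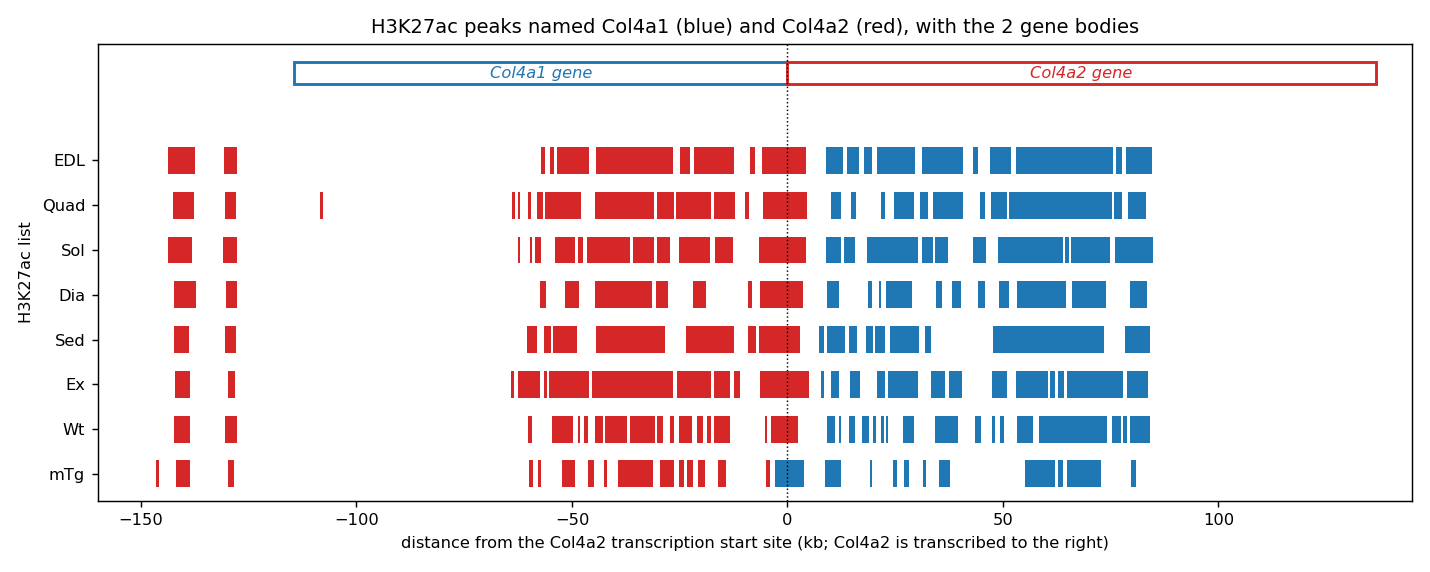
H3K27ac peaks named Col4a1 (blue) and Col4a2 (red) in the 8 groups, drawn by distance in kb from the Col4a2 start site, with both gene bodies as open boxes above. Blue peaks fill the first part of the Col4a2 body and red peaks the Col4a1 body, and 2 red peaks near 140 and 129 kb lie outside both genes in every group.

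The locus held the widest H3K27ac domains of the 10 genes in every group. In intron 4 of Col4a2 a single peak spanned 23.9 kb in Quad (chr8:11364210-11388087), rank 25 by width of 40949 peaks, with levels per kb of 6.36 and 6.32 in the 2 libraries. In Sed the corresponding peak spanned 25.7 kb, in EDL 22.4 kb, in Wt 15.9 kb and in Sol 15.0 kb, and in Dia 11.5 kb. In Ex the area was called as shorter peaks of at most 13.0 kb, and in mTg of at most 7.76 kb. Width depends on how the caller joined neighbouring peaks and on depth, and these values have no replicate. In intron 1 of Col4a1 a second wide peak ran over 13.7 kb in Quad and 18.8 kb in Ex, rank 41 of 34572 there. H3K4me2 formed its widest collagen gene peak over the shared start sites in all 8 groups, from 8.14 kb in mTg to 18.8 kb in EDL, rank 30 of 42501.

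To compare groups, each peak was paired with the one peak of the other list that shared 50% or more of both their lengths, and the difference of their levels per kb was centred on the median of all matched peaks. The lists were normalized separately, so these differences carry no test. Peaks called over 2-fold apart had a centred difference past 2-fold and no overlap between the libraries of one group and those of the other. The range given with each median is that over the 4 pairings of single libraries, each centred on its own.

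Of the H3K27ac contrasts among the sedentary muscles, that of EDL against Quad had the median furthest from 0. In EDL against Quad the median H3K27ac difference over 49 matched peaks was -0.34 (range -0.32 to -0.23 over the pairings, n = 2 libraries per group), with 37 peaks lower in EDL and 12 higher. The pairings' range does not enclose the median because each pairing was centred separately. The genes were not alike: all matched peaks were lower in EDL for Col3a1 (median -0.56, 4 peaks), Col5a2 (-0.54, 6 peaks), Col6a1 (-0.54, 2 peaks) and Col6a2 (-0.33, 4 peaks), while Col15a1 was at 0.06 over 5 peaks. No collagen gene peak was over 2-fold apart, against 0.382% of all 22530 matched peaks higher and 0.262% lower in EDL. At the TSS 6 of 9 intervals ranked lower in both EDL libraries than in both Quad libraries, against 40.4% of 8320 genes with a TSS peak in both lists, and none ranked higher, against 24%. Fibroblast markers moved with them, with a median of -0.37 over 26 peaks, 5 of them higher in EDL, and myofiber genes were at 0.21 over 21 peaks. The part of cell makeup in the EDL value was not tested. The median was 0.00 without centring, and H3K4me2 gave -0.23 over 32 peaks, none of them over 2-fold apart, against 0.232% of all matched peaks higher and 0.221% lower in EDL. That H3K4me2 median was -0.05 without Col4a1 and Col4a2, -0.07 at 80% overlap and 0.19 without centring.

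For soleus and diaphragm the medians were nearer 0 per kb. The H3K27ac medians were -0.03 (range -0.13 to 0.01, 52 peaks) for Sol against Quad, -0.12 (-0.32 to 0.05, 40 peaks) for Dia against Quad and 0.12 (-0.08 to 0.29, 39 peaks) for Sol against Dia, all with pairings on both sides of 0. The choice of scale mattered here: without width scaling Sol against Quad was at -0.28, and without centring Dia against Quad was at 0.35 and Sol against Dia at -0.30. At the TSS 3 of 8 intervals ranked lower in Sol than in Quad, against 36.4% of all genes, and none higher, against 27.5%. For Dia 1 of 9 ranked lower, against 39.8%, and 2 higher, against 26%. None of these peaks was over 2-fold apart. Of all matched peaks, 1.25% were higher and 2.49% lower in Sol than in Quad, 1.59% and 2.67% in Dia than in Quad, and 1.10% and 0.544% in Sol than in Dia. The H3K4me2 medians were 0.06, 0.05 and 0.03, again with no peak over 2-fold apart. Of all matched H3K4me2 peaks 0.778% were higher and 1.11% lower for Sol against Quad, 0.605% and 0.973% for Dia against Quad, and 0.288% and 0.151% for Sol against Dia.

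After voluntary running most collagen gene peaks were higher. In Ex against Sed the median H3K27ac difference was 0.37 (range 0.17 to 0.57 over the pairings), with 39 of 49 matched peaks higher in Ex. A positive median was found for 8 genes: Col1a2 0.62 over 5 peaks, Col6a2 0.62 over 5, Col5a2 0.59 over 6, Col5a1 0.50 over 4, Col3a1 0.43 over 7, Col15a1 0.31 over 6, Col1a1 0.29 over 2 and Col6a1 0.24 over 3. For Col1a1, Col1a2, Col3a1, Col5a2 and Col6a2 every matched peak was higher in Ex. The Col4 locus did not share this direction, with -0.09 over 5 peaks named Col4a1 and -0.13 over 6 named Col4a2. Over all 18426 matched peaks the quartiles ran from -0.30 to 0.29. Of the untreated sets, Sed against Quad gave a median of -0.01 (range -0.12 to 0.04, 47 peaks), with 21 higher and 26 lower. None of these was over 2-fold apart, against 0.888% of all higher and 0.183% lower. This is 1 pair of sedentary sets, and the part of an offset between sets in the Ex value was not tested.

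At the TSS the Col1a2 peak ranked at the 76.2nd and 81.4th percentiles in the 2 Ex libraries and at the 36.7th and 55.5th in the 2 Sed libraries. The Col5a1 peak ranked at 78.6 and 77.6 in Ex and at 49.6 and 59.0 in Sed, and that of Col6a1 at 78.9 and 82.9 against 53.8 and 70.2. In each of these the groups did not overlap. Of 8 TSS intervals with a peak in both groups, 6 ranked higher in both Ex libraries (Col1a1, Col1a2, Col3a1, Col5a1, Col6a1 and Col15a1) and none lower, against 33.2% and 23% of all 8993 genes. The Col4 interval, at 83.4 and 76.5 in Ex and 80.5 and 81.9 in Sed, overlapped, as did that of Col6a2. Col5a2 had a TSS peak in Ex, at 79.2 and 85.0, and none in Sed. Of the 6 genes that ranked higher in Ex, Col1a2 and Col5a1 had also ranked lower in both Sed libraries than in both untreated Quad libraries. Those Sed minus Quad differences were -14.1 and -17.4 percentile points. At Col1a1, Col3a1, Col6a1 and Col15a1 the Sed and Quad libraries overlapped.

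The number of peaks far apart depended on the scaling: 4 of 49 were over 2-fold apart per kb, and 17 without width scaling. Per kb, in Ex 1 peak was over 2-fold higher, against 0.700% of all matched peaks, and 3 were over 2-fold lower, against 2.47%. The higher peak was in intron 1 of Col5a2 (chr1:45472351-45473606, 30.3 kb from the TSS), with centred levels per kb of -0.48 and 0.16 in Ex and -1.12 and -1.39 in Sed, a difference of 1.05. The 3 lower peaks were the 2 distal peaks of the Col4 locus, at -1.34 and -1.28, and a peak in intron 14 of Col15a1 (chr4:47275116-47277343) at -1.05. The Col15a1 peak had -1.53 and -1.24 in Ex and -0.22 and -0.54 in Sed, and was opposite in sign to the other 5 matched peaks of its gene. In both directions together, 2 of the 4 were over 2-fold apart without the second Ex or the first Sed library.

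**Figure D4:**
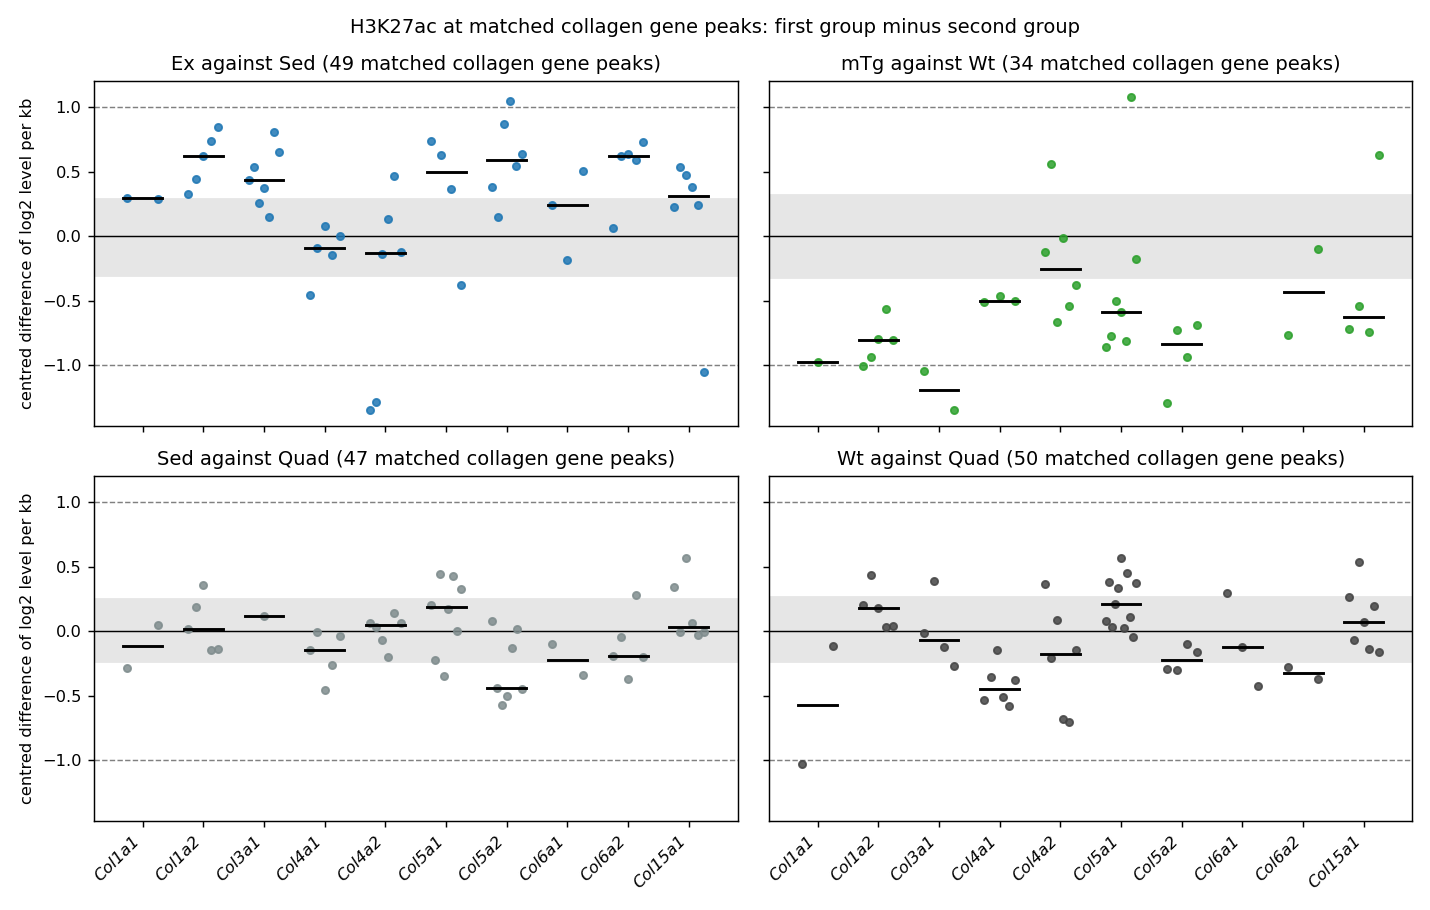
Centred difference of H3K27ac level per kb at each matched peak by gene, for Ex against Sed, mTg against Wt and, as untreated sets, Sed against Quad and Wt against Quad; dots are peaks in genomic order, black bars the gene's median, the grey band the range between the quartiles of all matched peaks and dashed lines 2-fold. In Ex against Sed most dots lie above 0 except at Col4a1 and Col4a2, and in mTg against Wt most lie below 0.

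Other gene sets of the stroma were compared in the same way. In Ex against Sed the other collagens had a median of 0.28 over 24 peaks of 12 genes, the collagen-processing enzymes 0.25 over 19 peaks of 10 genes with 16 higher, and the basement membrane genes other than type IV collagens 0.03 over 29 peaks of 11 genes. Fibroblast markers were at 0.25 over 24 peaks, with 17 higher, macrophage markers at 0.49 over 6 peaks, all higher, and mural markers at 0.18 over 7. Endothelial markers were at 0.02 over 27 peaks and myofiber genes at -0.47 over 14 peaks with 1 higher. Sed against Quad also put the myofiber genes at -0.43 and the macrophage markers at 0.34, with the fibroblast markers at 0.02. The input libraries of Ex and Sed differed by 0.09 at the same collagen gene peaks, and the median less input was 0.26 with 44 of 49 higher. The part of cell makeup in the Ex values was not tested. By qPCR of marker RNA the study reported no change of immune, vascular or satellite cells in Ex muscle. Among the 2 of each set with the highest level per kb in Ex were Col6a3 and Col14a1 of the other collagens, P4ha1 and P4hb of the processing enzymes, and Dcn and Fbn1 of the fibroblast markers. This is a rank by level within Ex and not a rise over Sed. The levels of Col6a3, Col14a1, P4ha1 and P4hb were 6.61, 6.53, 7.58 and 7.39 in Ex. In Sed, a list normalized separately, they were 6.79, 6.87, 7.69 and 7.47. That of Fbn1 was 6.99 in Ex and 6.98 in Sed. Of the fibroblast markers, Fbn1 had 1 region in the list higher in Ex and Dpt 1 in the list higher in Sed.

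The differential lists hold regions that the authors had selected on these same 4 libraries, so the limma test gives a size and an error and is not independent evidence of the direction. The list higher in Ex held 4 collagen gene regions, all intergenic and all past an adjusted p of 0.05, as were 99.7% of its 382 regions. The region 58.1 kb upstream of Col5a1 (chr2:27826425-27830179) had H3K27ac levels of 6.97 and 7.36 in Sed and 7.70 and 8.19 in Ex, a difference of 0.78 ± 0.18 on the log2 scale (SE, n = 2 per group, limma adjusted p = 0.000949), rank 8 of the list by size. The Ex libraries were both above the Sed libraries. A second region, 21.9 kb upstream of Col5a1 (chr2:27863561-27865402), had 6.30 and 6.48 in Sed and 6.86 and 7.21 in Ex, a difference of 0.64 ± 0.17 (limma adjusted p = 0.00136). The nearest next start site, that of Rxra, was 152 and 188 kb away.

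The other 2 regions had lower levels. One lay 38.5 kb upstream of Col5a2 (chr1:45541391-45542188), with 4.46 and 4.62 in Sed and 5.08 and 5.04 in Ex, a difference of 0.52 ± 0.16 (limma adjusted p = 0.00346). The other lay 156 kb upstream of Col1a2 (chr6:4349394-4350853), with 5.26 and 5.23 in Sed and 5.60 and 5.93 in Ex, a difference of 0.52 ± 0.16 (limma adjusted p = 0.00389). Neither had been called in the Sed list, whereas the Col1a2 region overlapped a peak in Quad, Sol and Wt. The ATAC interval of the Col1a2 region printed above held TGANTCA 2 times and that of the 58.1 kb Col5a1 region held it once, with CCAAT and TATAAA. Each list holds regions of 1 direction, so centring every library on the list median removes their shared difference, and none of the 4 then passed the threshold. Without the first Sed library none of the 4 regions passed the threshold, and without the second Sed library 2 did.

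The list higher in Sed held 2 regions named Col4a2, outside both type IV genes. The region 140 kb from the start site (chr8:11170495-11174267) had 9.13 and 8.78 in Sed and 8.15 and 7.97 in Ex, a difference of -0.89 ± 0.21 (SE, n = 2 per group, limma adjusted p = 0.000193). The region 129 kb away (chr8:11182219-11184760) had 8.23 and 7.66 in Sed and 7.17 and 6.80 in Ex, a difference of -0.96 ± 0.21 (limma adjusted p = 9.21e-05). The groups did not overlap in either, and 99.7% of the 2280 regions of this list passed the same threshold. Neither passed with each library centred on the list median. They are the same places as the 2 over 2-fold lower matched peaks. The next start site outside the locus, that of Irs2, was 163 and 175 kb away, against 140 and 129 kb for Col4a2. The start sites of Col4a2 and Col4a1, at 11312805 and 11312826, lay close together, and the list named Col4a2.

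These 2 places were among the 6 collagen gene peaks of Quad above the 75th percentile of level per kb. In Quad the first had levels per kb of 7.56 and 6.68, at the 89.7th percentile of its list, and the second 6.96 and 6.45, at the 80.9th. Both were called in all 8 groups, and the first was the strongest peak named Col4a2 in 5 of them. In Ex it fell to the 50.1st percentile from the 89.2nd in Sed, while in Wt and mTg it stood at the 96.2nd and 89.9th. Their ATAC intervals had signals at the 92.0th, 78.8th and 88.5th percentiles of the Quad list, the highest among the 6 printed, and the first region held both intervals with TGANTCA. In diaphragm the 2 places held the only MED1 peaks of the 10 genes, both at the 24.2nd percentile of signal in the diaphragm MED1 list. MED1 is a subunit of the mediator complex, which joins enhancers to the transcription machinery.

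**Figure D5:**
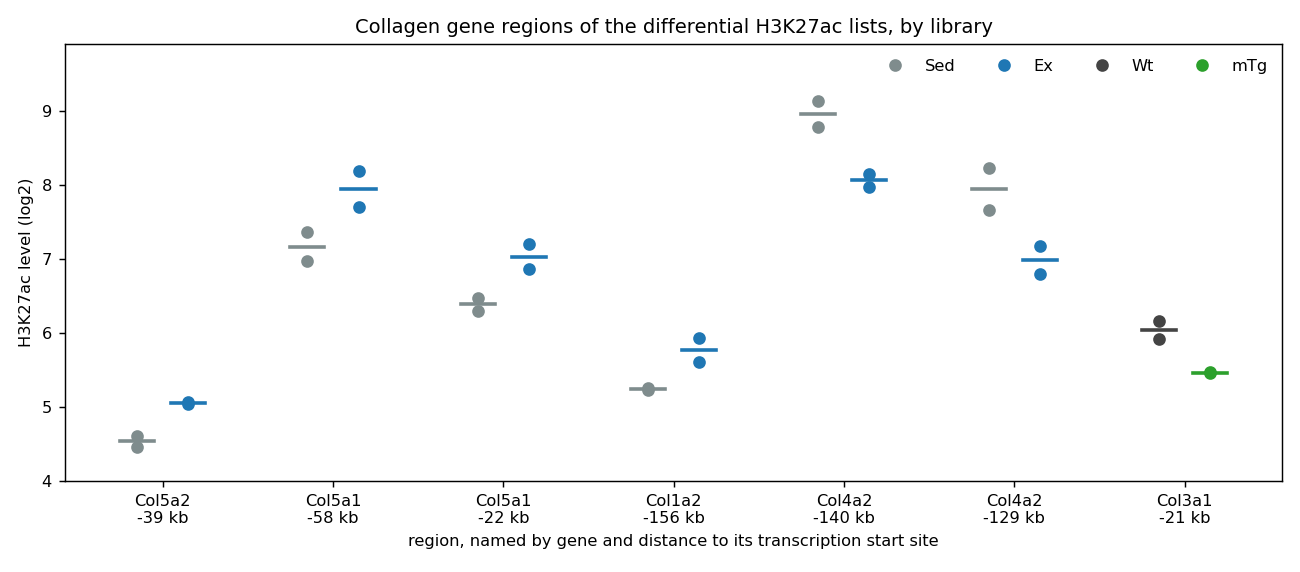
H3K27ac level (log2) of each of the 7 collagen gene regions of the differential lists, each dot 1 library and each bar the mean of 2, with the gene and its distance in kb below. The Ex libraries lie above the Sed libraries in the first 4 regions and below them in the 2 Col4a2 regions, and the mTg libraries lie below the Wt libraries in the Col3a1 region.

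In the transgenic quadriceps the collagen gene peaks were lower. In mTg against Wt the median H3K27ac difference was -0.68 (range -0.91 to -0.43 over the pairings), with 31 of 34 matched peaks lower in mTg. By gene the medians were -1.19 over 2 peaks for Col3a1, -0.98 over 1 for Col1a1, -0.83 over 4 for Col5a2, -0.80 over 5 for Col1a2, -0.63 over 4 for Col15a1, -0.59 over 7 for Col5a1, -0.50 over 3 for Col4a1, -0.43 over 2 for Col6a2 and -0.25 over 6 for Col4a2. No Col6a1 peak was matched. The matched peaks were 34 of 71 in mTg and of 129 in Wt, so most Wt peaks are not part of these values. The quartiles of all 17444 matched peaks ran from -0.33 to 0.32, and Wt against Quad gave -0.06 (range -0.16 to 0.09, 50 peaks). In that untreated pair 1 intergenic peak upstream of Col1a1 (chr11:94912904-94913626) was over 2-fold lower in Wt, against 0.511% of all, and none higher, against 0.848%.

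The input libraries moved in the same direction. At the matched collagen gene peaks the mTg input was 0.47 below the Wt input (log2 level per kb, centred likewise), and the ChIP difference less the input difference had a median of -0.16 with 12 of 34 peaks higher. Each group had 1 input library, of 7.72 M tags in Wt and 8.83 M in mTg, the 2 shallowest inputs. The part of the inputs in the result was not tested. Fibroblast markers were at -0.49 over 20 peaks with 1 higher, other collagens at -0.58 over 15 with 2 higher, and macrophage markers at -0.30 over 8 with none higher. Collagen-processing enzymes and basement membrane genes were both at -0.24, mural markers at -0.09, endothelial markers at 0.14 and myofiber genes at 0.11. The part of cell makeup was not tested. By qPCR, which measures RNA and not H3K27ac, the study reported raised macrophage and vascular markers in mTg muscle.

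In mTg 4 collagen gene peaks were over 2-fold lower, against 2.45% of all matched peaks, and 1 was over 2-fold higher, against 2.18%. Col3a1 gave 2 of them, in its first intron at chr1:45315334-45316192 with -1.58 and -1.57 in mTg and -0.09 and -0.32 in Wt, and over its TSS at chr1:45310028-45314188 with -0.97 and -0.88 against 0.29 and -0.02. The libraries of the groups were well apart in both, the differences being -1.35 and -1.04. A peak in intron 18 of Col5a2 differed by -1.29. The fourth, 87.3 kb upstream of Col1a2, at -1.0, was named after its value was seen. Leaving out 1 library at a time gave 2 without the first Wt library, 3 and 10 without the first and second mTg libraries, and 12 without the second Wt library, in both directions together. The higher peak was in intron 1 of Col5a1 (chr2:27917731-27920326, 32.6 kb from the TSS), with 0.74 and 0.37 in mTg and -0.66 and -0.34 in Wt, a difference of 1.08.

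At the TSS all 6 intervals with a peak in both groups ranked lower in both mTg libraries than in both Wt libraries, against 53.9% of all 6991 genes, and none higher, against 19.2%. Col3a1 ranked at 43.7 and 43.4 in mTg and at 82.4 and 76.0 in Wt, and Col1a2 at 35.1 and 37.6 against 70.6 and 66.0. Wt against Quad placed 4 of 8 TSS intervals higher in Wt and none lower, near the 49.5% and 17.8% of all genes, and Sed against Quad placed 4 of 8 lower in Sed and none higher, against 32.4% and 26.1%.

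The list higher in Wt held 1 collagen gene region, 20.8 kb upstream of Col3a1 (chr1:45289478-45291907), with 6.17 and 5.92 in Wt and 5.47 and 5.46 in mTg, a difference of -0.58 ± 0.13 (SE, n = 2 per group, limma adjusted p = 0.000389). All 844 regions of that list, 100%, passed the threshold, and the Col3a1 region did not with each library centred on the list median. The place was called as an H3K27ac peak in EDL, Quad, Dia, Sed, Ex and Wt but not in Sol or mTg, and its ATAC interval held none of the 4 motifs. The list higher in mTg held no collagen gene region among 1828.

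H3K4me2 medians were near 0 in both contrasts. In Ex against Sed the median was 0.09 (range 0.03 to 0.17) over 16 matched peaks, 11 of them higher, and in mTg against Wt it was 0.09 (range -0.03 to 0.29) over 18, 11 of them higher. No peak was over 2-fold apart, against 0.00925% higher and 0.0833% lower of all matched peaks for Ex, and 0.334% and 0.391% for mTg. At the TSS, however, all 7 intervals with an H3K4me2 peak in both groups ranked lower in both mTg libraries, as did 69.4% of all 10922 genes, and none ranked higher, against 6.61%. Col5a1 ranked at 42.8 and 45.2 in mTg and at 69.2 and 70.4 in Wt. The first mTg H3K4me2 library, of 6.41 M tags, was the shallowest. The mTg input was 0.48 below the Wt input here too, and less input the mTg median was 0.37. The largest H3K4me2 offset was between untreated sets: Wt against Quad gave -0.46 (range -0.52 to -0.33), with 24 of 26 peaks lower in Wt. Of these, 2 were over 2-fold lower, against 1.64% of all, in intron 4 of Col4a2 (chr8:11379825-11382961, -1.0) and in intron 14 of Col15a1 (chr4:47275469-47277077, -1.03), and none higher, against 1.05%. The Wt input was 0.42 below the Quad input at these peaks, and less input the median was -0.08. Sed against Quad gave 0.03 over 23 H3K4me2 peaks, none over 2-fold apart, against 0.643% of all higher and 0.0960% lower.

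Other readouts were compared by the share of H3K27ac peaks that they overlapped. Of 104 Quad H3K27ac peaks, 47 (45.2%) held an ATAC interval, against 57.2% of all Quad H3K27ac peaks. At least 1 was held at each gene, from 1 interval at Col6a1 to 11 at Col4a1. MED1 peaks overlapped none of 104 peaks in Quad and none of 70 in EDL, 2 of 69 in Dia, and 3 of 73 in Sol, at Col4a1 and Col5a2, against 3.76%, 1.12%, 4.16% and 5.34% of all peaks. NFAT peaks, mapped for a calcium-regulated transcription factor family, overlapped none of 104 in Quad, against 0.0464% of all. In Sol they overlapped 4 of 73 (5.48%), at Col3a1, Col4a1 and Col5a2, against 3.02%. Each MED1 and NFAT list came from 1 library. Shares were also taken over peaks at least as wide as the collagen gene median. ATAC was then at 71.2% against 81.0% of all. MED1 was at 0% against 6.85% in Quad, 0% against 2.15% in EDL, 5.71% against 7.29% in Dia and 5.41% against 9.07% in Sol. NFAT in Sol was at 10.8% of 37 peaks against 5.66%.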

How the data were processed

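Histone ChIP-seq libraries of 8 groups, 2 per group and mark, were analysed from the authors' peak lists. The authors aligned reads with Bowtie to mm10 (version 1.2 in the submitters' processing notes, another release of Bowtie in the study's methods), called peaks over both replicates and counted tags with HOMER. The tag columns of the deposited lists are log2 values that differ in scale from raw tags, taken here as regularized log2 tag levels, normalized within each list, with quantile normalization in the differential lists. The deposited fold and adjusted p-value columns were used only as thresholds, and the authors' comparison values were not otherwise used. The deposited ATAC, MED1 and NFAT lists give a signal or score per interval, used only to rank intervals within a list. A further 5 interval files, not on mm10, were not used.

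A peak belonged to a gene by the list's gene name column. Levels per kb, 1 to 1 matching at 50% reciprocal overlap and centring used Python 3.11.15, numpy 2.4.6 and pandas 2.3.3, with no test between lists. Each differential list was fitted with limma 3.58.1 in R 4.3.3 (two-sided, Benjamini-Hochberg over the list), checked on simulated data. Genes named in the text were the 10 collagens, their TSS, strongest, differential and over 2-fold peaks (at most 3 per direction), and the 2 genes of highest level of each companion list. The collagen genes and companion lists were chosen with earlier results of these data known. Tag totals limit precision, at 6.41 to 24.2 M tags per library. Replicates are separate samples of 1 group.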

Additional observations from a re-analysis of the deposited data

How the results depend on the processing

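Alternatives were run for each contrast, with those on Col4a1 and Col4a2, the 50 kb limit and the crossed pairing chosen after seeing the data. Of 16 median differences, the sign was kept in 16 within 50 kb of the TSS, 15 without Col4a1 and Col4a2, 14 at 80% overlap, 13 less input, 13 without width scaling and 7 without centring, and in 57 of 64 medians with 1 library left out. The cause of these changes was not tested. Depth limits which peaks were called at all, above all in Wt and mTg.

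At a deposited adjusted p-value under 0.001, the H3K27ac peak counts were 47 in EDL, 65 in Quad, 47 in Sol, 42 in Dia, 42 in Sed, 53 in Ex, 39 in Wt and 19 in mTg. The H3K4me2 counts were 34 in EDL, 35 in Quad, 25 in Sol, 17 in Dia, 18 in Sed, 28 in Ex, 13 in Wt and 9 in mTg. Medians and over 2-fold counts are given below only where an alternative moved them. A median moved when it changed by more than the SD of its 4 pairings, and a count when it passed a set ratio. By this rule 47 medians moved and 113 did not, and 39 counts moved and 89 did not.

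For H3K27ac the medians at 80% overlap were -0.41 for EDL against Quad and -0.0901 for Sol against Quad, with over 2-fold counts of 1 for Ex against Sed, 1 for mTg against Wt and 0 for Wt against Quad. Without width scaling the medians were -0.28 for Sol and -0.0954 for Sed against Quad and 0.67 for Ex against Sed, and the counts were 6 for EDL, 3 for Sol, 5 for Dia and 6 for Wt against Quad, 1 for Sol against Dia, 17 for Ex against Sed and 11 for mTg against Wt. Without centring the medians were 0.00290 for EDL, 0.0344 for Sol, 0.35 for Dia, 0.14 for Sed and -0.49 for Wt against Quad and -0.30 for Sol against Dia, and the counts were 1 for Dia and 4 for Wt against Quad, 1 for Sol against Dia and 8 for mTg against Wt. Less input the medians were -0.12 for Sol, -0.19 for Sed and 0.0752 for Wt against Quad and -0.16 for mTg against Wt, and the counts were 1 for EDL and 3 for Wt against Quad, 1 for Ex against Sed and 2 for mTg against Wt. Without Col4a1 and Col4a2 the EDL median was -0.40.

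For H3K4me2 the medians at 80% overlap were -0.0654 for EDL, -0.0465 for Dia and 0.12 for Sed against Quad and 0.15 for Sol against Dia. Without width scaling they were -0.29 for EDL, -0.0164 for Sol, -0.0704 for Dia and -0.71 for Wt against Quad, 0.23 for Sol against Dia and -0.0399 for Ex against Sed, with counts of 3 for EDL and 8 for Wt against Quad and 1 for mTg against Wt. Without centring they were 0.19 for EDL, 0.17 for Dia, -0.19 for Sed and -0.79 for Wt against Quad and -0.21 for mTg against Wt, with counts of 7 for Wt against Quad and 1 for mTg against Wt. Less input they were -0.10 for EDL, -0.0866 for Dia and -0.0791 for Wt against Quad, 0.17 for Ex against Sed and 0.37 for mTg against Wt, with counts of 1 for Wt against Quad and 3 for mTg against Wt. Without Col4a1 and Col4a2 they were -0.0487 for EDL against Quad and 0.12 for Sol against Dia.

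With each library left out in turn the H3K27ac medians ran from -0.36 to -0.24 for EDL, -0.26 to 0.0808 for Dia and -0.11 to 0.0170 for Sed against Quad and -0.78 to -0.48 for mTg against Wt, and the over 2-fold counts from 0 to 1 for EDL, 0 to 3 for Dia and 0 to 1 for Wt against Quad, 2 to 4 for Ex against Sed and 2 to 12 for mTg against Wt. The H3K4me2 medians ran from -0.23 to -0.16 for EDL and -0.0759 to 0.0965 for Dia against Quad, -0.0585 to 0.0838 for Sol against Dia and 0.0198 to 0.11 for Ex against Sed, and the count from 1 to 3 for Wt against Quad.

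In the limma fits, 0 to 4 of the 4 regions higher in Ex passed with 1 library left out. Centring each library on its list median left 0 collagen gene regions past the threshold in the 3 lists that held any, with 35 of all regions still past it in the list higher in Wt and 0 in the lists higher in Ex and in Sed. A deposited adjusted p-value under 0.001 left 0 collagen gene regions, of 4 and 299 regions in all, in the lists higher in Ex and in Wt. With the replicate number as a block, 4 of 4, 2 of 2 and 1 of 1 regions passed. The replicate numbers' correlations were 0.14, 0.11, -0.24 and -0.04 in the 4 lists. With 2 libraries per group and regions selected for the contrast, these values cannot show whether the samples were paired. The crossed pairing also passed 4, 2 and 1. The block changed no call.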
